A study of Mus musculus with 12 samples.

Results

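The unfolded protein response and the integrated stress response were followed through 36 listed genes, of which 33 were measured by a row of the array table with a single gene symbol. The list names genes known for these pathways, and it was drawn up with earlier results of these data known. Atf6, Dnajc3 and Phgdh were not analysed here. By role, the 33 were 4 sensors and transcription factors, 10 chaperones and folding factors of the endoplasmic reticulum (ER), 8 genes of ER-associated degradation, and 11 targets of the transcription factors ATF4 and CHOP. They were read among 14807 genes with a row of their own. Each of the 33 had 1 row, so no choice between rows was needed.

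The 12 arrays came from CD8α+-like dendritic cells, grown for 10 days from C57BL/6 mouse bone marrow with the growth factor Flt3L at 100 ng/ml and then sorted. There were 4 groups of 3 arrays: untreated wild-type (WT) cells, WT cells cultured for 5 h with dead cells, untreated Clec9a gfp/gfp cells, and Clec9a gfp/gfp cells given the same culture. The ratio was 1 to 2, and the sort kept CD24hi CD11blow B220- cells. The dead cells had been exposed to UVC at 240 mJ/cm2 and cultured for another 24 h. Their cell type is not given in the sources used here. Clec9a encodes DNGR-1, a receptor for actin filaments of dead cells, and the gfp/gfp mice lack it. The untreated cells are labelled 0 h, so dead cells and the 5 h of culture itself cannot be told apart as sources of a change. No source used here says whether the 3 arrays of a group came from separate mice or cultures, so p-values cover array-to-array spread, which may be technical.

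Proteins that fold poorly in the ER are sensed by proteins of its membrane. IRE1, encoded by Ern1, splices the mRNA of the transcription factor XBP1. PERK, encoded by Eif2ak3, phosphorylates the initiation factor eIF2α, which slows translation and favours that of ATF4. ATF6 is cut in the Golgi to release a transcription factor. XBP1 and ATF6 are known to induce chaperones and degradation genes. ATF4 and its target CHOP, encoded by Ddit3, are known to induce genes of amino acid supply and genes that end the response. Other eIF2α kinases feed the same ATF4 arm without ER stress, which is why it is called integrated. Mouse type 1 conventional dendritic cells, of which these cultured cells are a model, are known for a high constitutive activity of IRE1.

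Promoter sequences show the elements through which the 2 arms are known to act, so 3 of each kind are printed. They are the 250 bases before the RefSeq gene start in GRCm38.p6, on the gene's strand, 5′ to 3′. Capitals mark 2 motifs searched on both strands. The first is the ER stress response element (ERSE), CCAAT followed after 9 bases of any kind by CCACG. The second is the core of the C/EBP-ATF response element (CARE), TGATGNAA. The chaperone genes are Hspa5 (chr2:34771840-34772089, plus strand), Hsp90b1 (chr10:86705445-86705694, minus strand) and Pdia6 (chr12:17266339-17266588, plus strand). The ATF4 targets are Asns (chr6:7693210-7693459, minus strand), Chac1 (chr2:119350992-119351241, plus strand) and Nupr1 (chr7:126625471-126625720, minus strand).
Hspa5: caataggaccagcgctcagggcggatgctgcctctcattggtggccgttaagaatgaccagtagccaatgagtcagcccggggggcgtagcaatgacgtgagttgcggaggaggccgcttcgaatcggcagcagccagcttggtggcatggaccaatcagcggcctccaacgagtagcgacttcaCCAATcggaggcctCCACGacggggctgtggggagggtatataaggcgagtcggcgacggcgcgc
Hsp90b1: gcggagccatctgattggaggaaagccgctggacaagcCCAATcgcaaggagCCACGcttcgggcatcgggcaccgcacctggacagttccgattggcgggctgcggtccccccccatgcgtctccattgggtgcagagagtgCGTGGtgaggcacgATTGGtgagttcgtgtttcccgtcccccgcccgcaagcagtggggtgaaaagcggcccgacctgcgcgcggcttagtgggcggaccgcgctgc
Pdia6: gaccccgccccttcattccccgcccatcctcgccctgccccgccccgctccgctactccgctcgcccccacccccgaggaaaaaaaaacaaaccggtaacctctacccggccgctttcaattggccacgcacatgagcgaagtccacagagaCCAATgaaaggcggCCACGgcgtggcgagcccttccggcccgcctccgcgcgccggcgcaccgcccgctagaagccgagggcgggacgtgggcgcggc
Asns: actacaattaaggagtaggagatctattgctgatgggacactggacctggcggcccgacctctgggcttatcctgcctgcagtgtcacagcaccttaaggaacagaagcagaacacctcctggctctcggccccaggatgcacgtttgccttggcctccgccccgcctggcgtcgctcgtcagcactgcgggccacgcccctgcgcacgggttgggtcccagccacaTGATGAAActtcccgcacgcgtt
Chac1: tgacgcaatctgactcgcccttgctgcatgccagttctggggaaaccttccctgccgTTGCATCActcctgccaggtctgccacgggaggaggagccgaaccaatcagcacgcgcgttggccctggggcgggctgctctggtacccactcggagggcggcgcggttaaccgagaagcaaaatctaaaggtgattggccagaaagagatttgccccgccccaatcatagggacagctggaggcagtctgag
Nupr1: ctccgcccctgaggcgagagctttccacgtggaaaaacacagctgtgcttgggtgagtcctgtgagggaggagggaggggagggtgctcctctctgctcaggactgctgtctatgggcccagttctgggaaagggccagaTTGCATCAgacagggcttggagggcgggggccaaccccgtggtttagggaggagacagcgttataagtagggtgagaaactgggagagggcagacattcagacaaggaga

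Of the 36 genes 32 had an entry in the promoter table. An ERSE stood in 7 of these promoters, against 0.13% of all 27025 genes of the table. Besides the 3 printed these were Creld2, Dnajc3, Derl3 and Syvn1, and Hsp90b1 held 2 copies in opposite directions. A CARE core stood in 5, against 3.91% of all genes, namely the 3 printed, Herpud1 and Vldlr. A match is a description of letters and not a bound site, and a gene without a match may carry the element elsewhere.

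The arrays of the 2 treatments differed in overall brightness. The median intensity of untreated arrays lay between 93.6 and 101, that of arrays with dead cells between 77.9 and 85.9, and the upper quartiles lay at 396 to 437 and at 231 to 259. Changes are given on the log2(intensity + 16) scale as deposited. Quantile normalization moved the median change of all rows up by 0.15 in both genotypes, and a shift of all arrays to one median moved it by 0.22 in WT and 0.24 in Clec9a gfp/gfp cells. Clec9a, the check of the genotype labels, read 2625 ± 38.3 (SD, n = 3) in untreated WT cells and 2.68 ± 2.32 in untreated Clec9a gfp/gfp cells. The cDC1 marker Xcr1 was well expressed, at 3187 to 3601 in untreated WT cells.

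After culture with dead cells more of the listed chaperones fell than rose and more of the listed ATF4 and CHOP targets rose than fell, with exceptions in both roles. In the further lists of amino acid genes and tRNA synthetases given below, more genes fell than rose. In WT cells 10 of the 33 members rose (30.3%, against 14.5% of all rows and 16.4% of single-symbol genes), 14 fell (42.4%, against 31.0% of rows and 39.2% of genes) and 9 did not pass an adjusted p of 0.05 in limma. In Clec9a gfp/gfp cells 11 rose (33.3%, against 16.6% of rows and 20.2% of genes) and 16 fell (48.5%, against 32.1% and 40.1%). The split of rises and falls depended on scaling, for the members and for all rows. After quantile normalization 15 rose and 13 fell in WT cells (45.5% and 39.4%, against 27.0% and 24.2% of rows) and 15 and 12 in Clec9a gfp/gfp cells (45.5% and 36.4%, against 28.5% and 24.3%). After a shift to one median 13 rose and 11 fell in each genotype (39.4% and 33.3%), against 30.0% and 27.0% of rows in WT and 32.1% and 27.6% in Clec9a gfp/gfp cells. Of the 33, 10 rose and 14 fell in both genotypes, 3 were called in Clec9a gfp/gfp cells alone, and none went opposite ways.

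**Figure D1:**
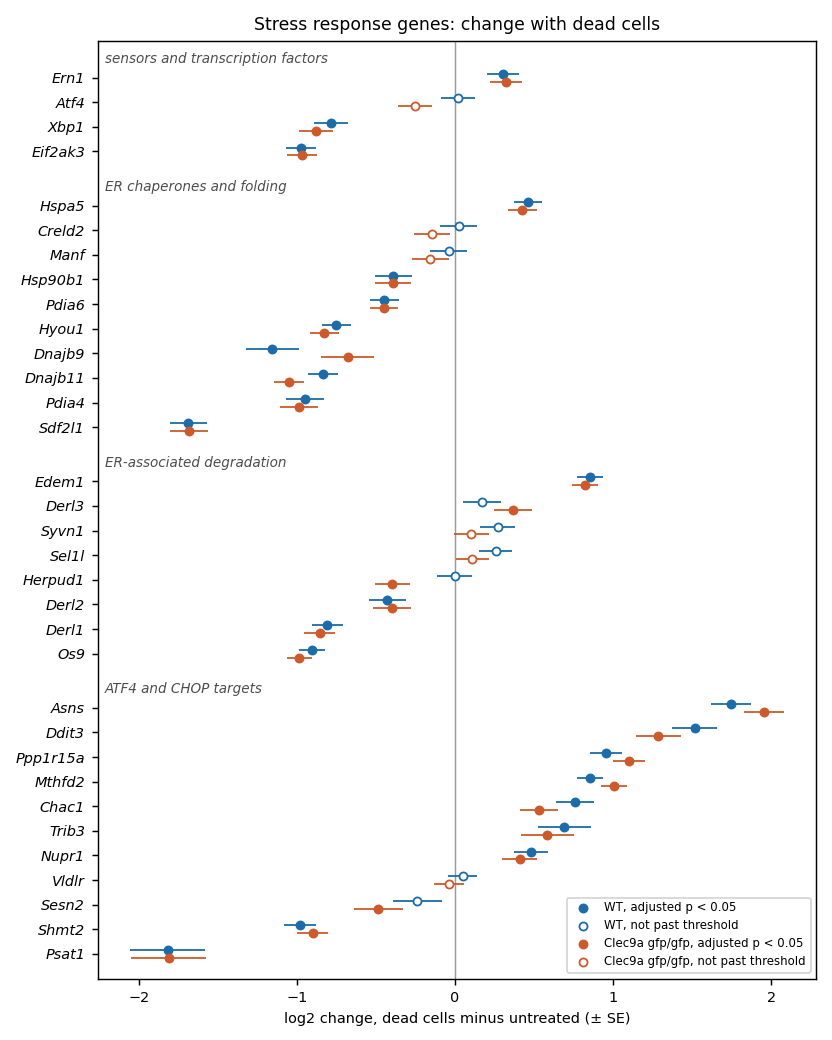
Change of each of the 33 genes with dead cells, on the log2(intensity + 16) scale, with points for the estimate, bars for the SE from limma and 3 arrays per group. WT cells are blue and Clec9a gfp/gfp cells orange, and open points did not pass an adjusted p of 0.05. Asns and Ddit3 lie farthest to the right and Psat1 and Sdf2l1 farthest to the left.

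Markers of other cells moved with the falls. Of single-symbol genes 39.2% fell in WT and 40.1% in Clec9a gfp/gfp cells. Of 15 monocyte and macrophage markers all 15 fell in both genotypes, and their summed intensity was 20139 to 29930 on the untreated WT arrays and 4029 to 4666 with dead cells (F13a1 at -4.28 ± 0.14, Stab1 at -4.55 ± 0.18 in WT cells). Stromal markers fell in 12 of 16 cases, with sums of 11167 to 14500 against 1978 to 3478 (Fstl1 at -2.91 ± 0.22, Sparc at -2.54 ± 0.22). All 13 markers of cycling cells fell, from 13329 to 15235 down to 1769 to 2197 (Mcm6 at -3.11 ± 0.09, Rrm1 at -3.12 ± 0.10). Neutrophil and mast cell markers fell in 9 of 15 cases in WT cells (Kit at -1.94 ± 0.11, Ngp at -3.44 ± 0.30), from sums of 11344 to 18077 to 1485 to 1595, and CD11b+ dendritic cell markers in 6 of 9, with 3 higher (Sirpa at -3.16 ± 0.17, Itgam at -2.70 ± 0.18), from 5446 to 7192 to 1787 to 2021. The cDC1 markers themselves fell in 9 of 12 cases in WT cells (Tlr3 at -3.89 ± 0.14, Naaa at -1.93 ± 0.08), from 63355 to 66582 to 27825 to 29367. As shares in WT cells, 75% of stromal and of cDC1 markers fell. For CD11b+ dendritic cell markers it was 66.7%, and for neutrophil and mast cell markers 60%. After quantile normalization 24.2% of rows fell in WT cells. Falls were then called for 14 of 15 monocyte and macrophage, 11 of 16 stromal and 13 of 13 cycling cell markers. For neutrophil and mast cell, CD11b+ dendritic cell and cDC1 markers they were 9 of 15, 5 of 9 and 9 of 12.

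Plasma cells and plasmacytoid dendritic cells are known for a large ER, so their markers were read as well. Of 12 plasma and B cell markers 5 fell and 1 rose in WT cells (41.7% and 8.33%, against 39.2% and 16.4% of single-symbol genes). The falls were thus near the share of all genes. Sums of these markers were 1187 to 2156 against 812 to 901 (Sdc1 at -1.57 ± 0.18, Prdm1 at 1.02 ± 0.10). Tnfrsf17, known as a marker of plasma cells, averaged below 16 in all 4 groups. It was the only 1 of the 12 to do so in untreated cells, and Ms4a1 was also below 16 in WT cells with dead cells. The others averaged 16 or more in every group, so this 1 marker does not show that plasma cells were absent. Of 10 plasmacytoid markers 3 rose and 1 fell in WT cells (30% and 10%), with sums of 2276 to 2640 against 4136 to 4310 (Tcf4 at 1.53 ± 0.10, Ccr9 at -1.84 ± 0.12). Reference genes fell in 4 of 7 cases and rose in 1 (57.1% and 14.3%), with Tbp at -0.97 ± 0.15 and Hprt at -1.17 ± 0.18. Sums of the reference genes were 46378 to 49690 against 48921 to 50308. In Clec9a gfp/gfp cells 40.1% of single-symbol genes fell and 20.2% rose. There 3 of 10 plasmacytoid markers rose and 3 fell (30% each). Of cDC1 markers 8 of 12 fell (66.7%), and of neutrophil and mast cell markers 8 of 15 (53.3%). Of CD11b+ dendritic cell markers 5 of 9 fell and 2 rose (55.6% and 22.2%). Of plasma and B cell markers 4 of 12 fell and 1 rose (33.3% and 8.33%). Their sums there, untreated and with dead cells, were 23571 to 25198 and 3748 to 4306 for monocyte and macrophage markers, 10620 to 16488 and 2099 to 2781 for stromal and 12722 to 13418 and 1812 to 2170 for cycling cell markers. They were 5936 to 24746 and 1653 to 1911 for neutrophil and mast cell markers, 6253 to 8053 and 1830 to 2049 for CD11b+ dendritic cell markers, and 56496 to 64894 and 26378 to 27051 for cDC1 markers, of which Clec9a averaged below 16. For plasma and B cells they were 1360 to 2256 and 883 to 954, for plasmacytoid cells 2515 to 2996 and 4382 to 4444, and for reference genes 47986 to 50292 and 46499 to 50437. The part of these cells in the changes of the stress genes was not tested.

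Sensors and transcription factors came first in the order of the pathway. Xbp1, the factor downstream of IRE1, read 2438, 2372 and 2418 on the untreated WT arrays and 1410, 1245 and 1531 with dead cells. The Clec9a gfp/gfp arrays read 2405, 2269 and 2447, and 1138, 1281 and 1450 with dead cells. Every array with dead cells was below every untreated array in both genotypes, a change of -0.79 ± 0.11 (SE, adjusted p = 8.34e-05) in WT and -0.88 ± 0.11 (adjusted p = 3.28e-05) in Clec9a gfp/gfp cells by limma. The deposited value is 1 number per gene, so spliced and unspliced Xbp1 cannot be told apart. Eif2ak3, the gene of PERK, read 943.8, 871.5 and 780.2 in untreated WT cells and 396.5, 435.1 and 463.0 with dead cells. The change was -0.98 ± 0.10 (adjusted p = 5.78e-06), and in Clec9a gfp/gfp cells it was -0.97 ± 0.10 (5.77e-06), again with no overlap. Quantile normalization left -0.47 in both genotypes.

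Ern1, the gene of IRE1, moved the other way by a small amount. It rose from 358.9, 365.8 and 295.8 to 451.7, 404.0 and 409.8 in WT cells, at 0.30 ± 0.10 (adjusted p = 0.0328), and by 0.32 ± 0.10 in Clec9a gfp/gfp cells (adjusted p = 0.0227). The WT call was lost without WT dead cell replicate 1 or 3 (adjusted p = 0.107 and 0.0507), without WT untreated replicate 3 (0.130), in a fit of the WT arrays alone (0.0771), and with the replicate number as a block (0.0501). The Clec9a gfp/gfp call was lost without untreated replicate 2 (0.0784) or dead cell replicate 3 (0.0699). Scaling raised both changes, to 0.91 and 0.99 (quantile) and to 0.52 and 0.56 (one median). Atf4, which is known to be regulated mainly by translation, read 1886 ± 66.3 and 1910 ± 124 (SD, n = 3 each) in WT cells without and with dead cells. Its change was 0.02 ± 0.11 there (adjusted p = 0.919) and -0.25 ± 0.11 in Clec9a gfp/gfp cells (adjusted p = 0.0742). Without Clec9a gfp/gfp dead cell replicate 3, the highest of its group, the latter was -0.36 and passed (0.0110), as it did with a pseudocount of 64 (0.0453), with 1 row per gene (0.0484) and with trended, robust eBayes (0.0396). Under the scalings it shrank to -0.12 (quantile, adjusted p = 0.299) and -0.02 (one median, adjusted p = 0.891), with WT values of 0.15 and 0.24 that did not pass.

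ER chaperones and folding factors were mostly lower with dead cells. In each genotype 7 of the 10 measured fell and 1 rose (70% and 10%). Of single-symbol genes 39.2% fell and 16.4% rose in WT cells, and 40.1% and 20.2% in Clec9a gfp/gfp cells. The median change of the chaperones was -0.60 in WT and -0.57 in Clec9a gfp/gfp cells, against -0.04 and -0.05 over all rows. All 10 averaged 740 or more in untreated cells. The upper quartiles of the arrays were 396 to 437 untreated and 231 to 259 with dead cells. The median of all rows is thus not matched to the brightness of the chaperones. After quantile normalization 7 fell and 2 rose in WT and 6 fell and 2 rose in Clec9a gfp/gfp cells. Of all rows 24.2% then fell and 27.0% rose in WT, and 24.3% and 28.5% in Clec9a gfp/gfp cells. After a shift to one median 5 chaperones fell and 1 rose in each (medians -0.38 and -0.33). Of all rows 27.0% then fell and 30.0% rose in WT, and 27.6% and 32.1% in Clec9a gfp/gfp cells. The median of the chaperones after quantile normalization was -0.47 in WT and -0.36 in Clec9a gfp/gfp cells. Over all rows the medians were then 0.11 and 0.10, and after a shift to one median 0.17 and 0.19. In sorted bulk RNA, fewer cells of a type and less RNA per cell cannot be told apart.

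Sdf2l1, a partner of the chaperone BiP in the ER lumen, had the largest fall of the 10. Its intensity was 1858, 1791 and 1913 in untreated WT cells and 515.7, 502.8 and 691.9 with dead cells, and 1662, 1797 and 1587 against 494.0, 519.6 and 522.7 in Clec9a gfp/gfp cells. Dead cell arrays thus lay at 0.308 and 0.304 of the untreated mean in the 2 genotypes. The changes were -1.69 ± 0.12 (adjusted p = 3.87e-07) and -1.68 ± 0.12 (adjusted p = 3.75e-07). Dnajb11, a co-chaperone of BiP, went from 1609, 1590 and 1602 to 894.0, 817.4 and 964.3 in WT cells and from 1721, 1686 and 1703 to 724.4, 862.6 and 866.6 in Clec9a gfp/gfp cells. The untreated arrays hardly differed among themselves, and the change was -0.84 ± 0.09 in WT and -1.05 ± 0.09 in Clec9a gfp/gfp cells.

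Pdia4, a protein disulfide isomerase, read 2059, 2020 and 1890 untreated and 989.6, 869.4 and 1238 with dead cells in WT cells. Its changes were -0.95 ± 0.12 in WT and -0.99 ± 0.12 in Clec9a gfp/gfp cells. Hyou1, a large Hsp70-like chaperone and exchange factor for BiP, changed by -0.75 ± 0.09 and -0.83 ± 0.09, with arrays of 1565 to 1771 untreated and 884.3 to 1058 with dead cells over both genotypes, and -0.50 and -0.53 after quantile normalization. Dnajb9, a co-chaperone known to restrain IRE1, read 1491, 1680 and 1452 against 852.4, 618.0 and 599.4 in WT cells. For Clec9a gfp/gfp the arrays read 1388, 1120 and 1511 against 789.0, 727.7 and 973.8. Dnajb9 thus fell in both, with changes of -1.16 ± 0.17 (adjusted p = 0.000126) and -0.68 ± 0.17 (adjusted p = 0.00536), and the second call was lost with quantile normalization (-0.31, adjusted p = 0.0886).

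Smaller falls were those of Hsp90b1, the ER chaperone GRP94, and of Pdia6, another disulfide isomerase. Hsp90b1 read 5433, 5905 and 5650 against 4142, 4079 and 4753 in WT cells, a change of -0.39 ± 0.11 (adjusted p = 0.0162), with -0.40 ± 0.11 (adjusted p = 0.0143) in Clec9a gfp/gfp cells. Its WT call was lost without dead cell replicate 1 or 2 or untreated replicate 2 (adjusted p = 0.0520, 0.0567 and 0.0574). In Clec9a gfp/gfp cells it was lost without untreated replicate 1 or 3 or dead cell replicate 1 (0.0527, 0.0587 and 0.0606). Pdia6 changed by -0.45 ± 0.09 in both genotypes, with no overlap between groups. A shift to one median ended the calls of both genes, with Hsp90b1 at -0.17 and -0.16 and Pdia6 at -0.23 and -0.21.

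Hspa5, which encodes BiP, the main Hsp70 of the ER and the gene most used as a marker of ER stress, was the 1 chaperone that rose. It read 5692, 5403 and 5816 in untreated WT cells and 7371, 7508 and 8467 with dead cells. The Clec9a gfp/gfp arrays read 5607, 5204 and 5589 against 6791, 7722 and 7554. All dead cell arrays were above all untreated arrays, and the change was 0.46 ± 0.09 (adjusted p = 0.00124) and 0.43 ± 0.09 (adjusted p = 0.0021). The rise passed the threshold under both scalings as well, at 0.34 and 0.36 (quantile) and at 0.68 and 0.66 (one median). Manf and Creld2, 2 secreted ER stress proteins, overlapped between groups in both genotypes. Manf changed by -0.04 ± 0.12 and -0.16 ± 0.12 and Creld2 by 0.02 ± 0.11 and -0.15 ± 0.11, with adjusted p of 0.301 or more. With quantile normalization Creld2 passed as higher, at 0.46 and 0.36. Of the 3 chaperones with an ERSE among the printed promoters, Hspa5 rose while Hsp90b1 and Pdia6 fell.

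**Figure D2:**
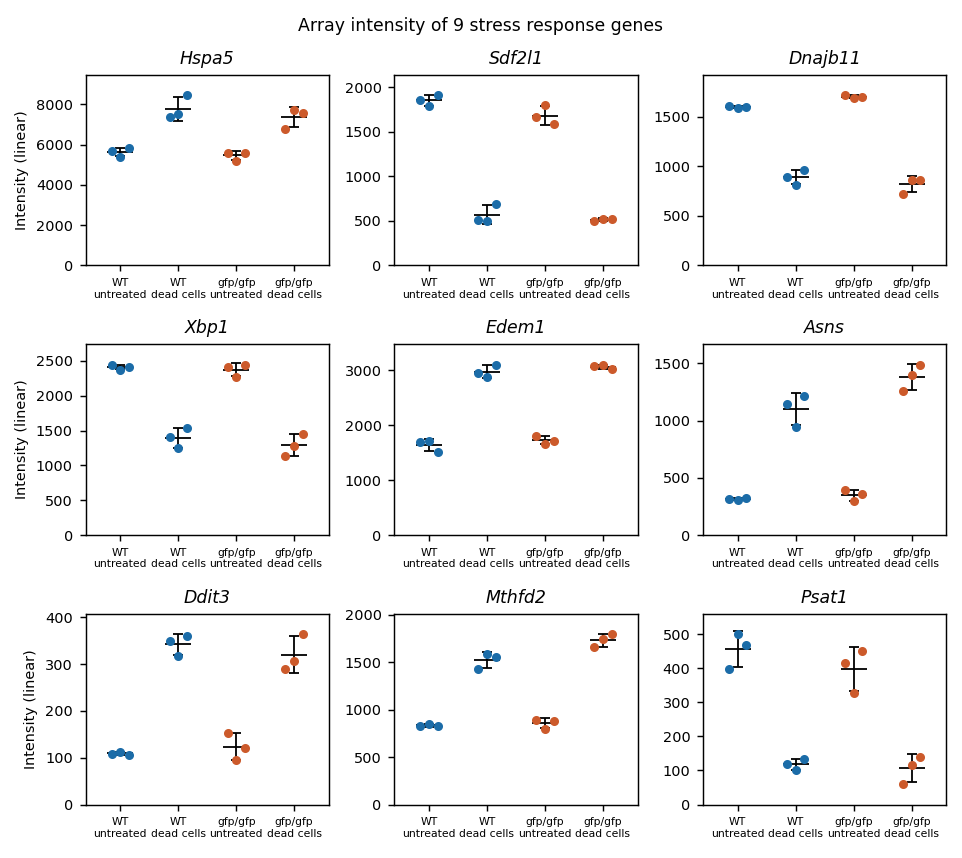
Intensity of 9 of the genes on every array, on linear axes that start at 0. Points are arrays, and black bars are the mean and SD of 3 arrays. For Hspa5, Edem1, Asns, Ddit3 and Mthfd2 the arrays with dead cells lie above the untreated ones in both genotypes, and for Sdf2l1, Dnajb11, Xbp1 and Psat1 below.

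Genes of ER-associated degradation, which carries misfolded proteins back to the cytosol for the proteasome, went both ways. In WT cells 1 of 8 rose and 3 fell (median 0.09), or 12.5% and 37.5% against 16.4% and 39.2% of single-symbol genes, a share near the background. In Clec9a gfp/gfp cells 2 rose and 4 fell (median -0.15), or 25% and 50% against 20.2% and 40.1%. Scaling turned this balance, to 4 rising and 2 falling in WT cells under either alternative (50% and 25%). In Clec9a gfp/gfp cells it gave 5 and 3 after quantile normalization (62.5% and 37.5%) and 4 and 2 after a shift to one median (50% and 25%). The balance of all rows turned too. In WT it went from 14.5% rising and 31.0% falling to 27.0% and 24.2% (quantile) and 30.0% and 27.0% (one median). In Clec9a gfp/gfp cells it went from 16.6% and 32.1% to 28.5% and 24.3% and to 32.1% and 27.6%. Edem1, a lectin that draws misfolded glycoproteins out of the folding cycle, was the clear rise. It read 1685, 1714 and 1511 untreated and 2938, 2876 and 3101 with dead cells in WT cells, and 1806, 1659 and 1702 against 3068, 3086 and 3024 in Clec9a gfp/gfp cells. Mean intensity was 1.82-fold and 1.78-fold higher, or 0.86 ± 0.08 (adjusted p = 4.45e-06) and 0.82 ± 0.08 (adjusted p = 5.72e-06) on the log2 scale.

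Os9 and Derl1 fell in the same arrays. Os9, a lectin that hands glycoproteins to the degradation complex, read 1767, 1624 and 1589 against 904.5, 824.5 and 905.6 in WT cells and changed by -0.91 ± 0.08 and -0.98 ± 0.08 in the 2 genotypes. Derl1, a membrane protein of the export channel, ranged from 1303 to 1447 over the untreated arrays and from 675.9 to 857.8 with dead cells. Its changes were -0.81 ± 0.10 and -0.86 ± 0.10, with -0.48 and -0.47 after quantile normalization. Edem1 and these 2 genes kept opposite directions, all past the threshold, under each scaling. The related Derl2 changed by -0.43 ± 0.12 (adjusted p = 0.0117) and -0.40 ± 0.12 (adjusted p = 0.0163), but quantile normalization turned it to 0.13 (adjusted p = 0.270) and 0.25 (adjusted p = 0.0452). A shift to one median ended both calls, at -0.21 (adjusted p = 0.116) and -0.16 (adjusted p = 0.211). The Clec9a gfp/gfp call of Derl2 was also lost in a fit of the Clec9a gfp/gfp arrays alone (0.0551) and without untreated replicate 1 or 3 or dead cell replicate 1 (0.0551, 0.0607 and 0.0648).

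The other 4 degradation genes were called in 1 genotype at most on the deposited scale. Herpud1, an ER membrane protein of the degradation complex, read 2616 ± 101 and 2617 ± 217 (SD, n = 3 each) in WT cells without and with dead cells. The Clec9a gfp/gfp arrays read 3230, 3470 and 3245 against 2199, 2476 and 2915, a change of -0.40 ± 0.11 (adjusted p = 0.0116), or -0.16 after a shift to one median (adjusted p = 0.251). Derl3 rose in Clec9a gfp/gfp cells by 0.36 ± 0.12 (adjusted p = 0.0275), a call lost without untreated replicate 1 or 2 (0.0653 and 0.10) or dead cell replicate 2 or 3 (0.0696 and 0.0704) or in a fit of those arrays alone (0.0539). In WT cells it changed by 0.17 ± 0.12, and both scalings called it higher there, at 0.68 (quantile, adjusted p = 0.000237) and 0.39 (one median, adjusted p = 0.0101). Sel1l and Syvn1, which form the core ubiquitin ligase of the pathway with the gene product HRD1 of Syvn1, changed by 0.26 ± 0.11 and 0.27 ± 0.11 in WT cells (adjusted p = 0.0726 and 0.0730). Without WT dead cell replicate 2 both passed (0.0148 and 0.0431). Their Clec9a gfp/gfp changes were 0.11 ± 0.11 and 0.10 ± 0.11, and both scaling alternatives called both genes higher in both genotypes.

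ATF4 and CHOP targets rose more often than they fell. In WT cells 7 of 11 rose and 2 fell (63.6% and 18.2%, against 16.4% and 39.2% of single-symbol genes), with a median of 0.69. In Clec9a gfp/gfp cells 7 rose and 3 fell (63.6% and 27.3%, against 20.2% and 40.1%), with a median of 0.53. Under quantile normalization 8 and 2 were called in WT and 7 and 1 in Clec9a gfp/gfp cells. Of all rows 27.0% then rose and 24.2% fell in WT, and 28.5% and 24.3% in Clec9a gfp/gfp cells. After a shift to one median 7 targets rose and 2 fell in each, against 30.0% and 27.0% of rows in WT and 32.1% and 27.6% in Clec9a gfp/gfp cells. The medians of the targets were then 1.10 and 1.11 (quantile) and 0.91 and 0.76 (one median). The 7 that rose were the same genes in both genotypes: Asns, Ddit3, Ppp1r15a, Mthfd2, Chac1, Trib3 and Nupr1.

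Asns, asparagine synthetase, rose most. It read 318.3, 306.4 and 324.6 in untreated WT cells and 1149, 947.7 and 1217 with dead cells, and 390.7, 293.9 and 356.9 against 1263, 1399 and 1491 in Clec9a gfp/gfp cells. That was 3.49-fold and 3.99-fold, or 1.75 ± 0.13 (adjusted p = 5.13e-07) and 1.95 ± 0.13 (adjusted p = 2.08e-07) on the log2 scale. Ddit3, the gene of CHOP, read 107.7, 112.9 and 106.6 against 348.8, 317.1 and 360.5 in WT cells. For Clec9a gfp/gfp they were 153.1, 95.76 and 121.0 against 289.5, 306.3 and 364.0. These are changes of 1.52 ± 0.14 (adjusted p = 4.22e-06) and 1.28 ± 0.14 (adjusted p = 1.55e-05), with the 2 treatments far apart in each genotype.

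Mthfd2, a mitochondrial enzyme of folate metabolism, read 823.8, 846.7 and 830.0 against 1425, 1586 and 1554 in WT cells. With 886.9, 794.2 and 883.5 against 1655, 1742 and 1796 in Clec9a gfp/gfp cells, the changes were 0.85 ± 0.08 and 1.01 ± 0.08. Ppp1r15a encodes GADD34, which directs the phosphatase that removes the phosphate from eIF2α and so ends the block of translation. It read 1619, 1288 and 1377 against 2926, 2730 and 2673 in WT cells, a rise of 0.96 ± 0.10 (adjusted p = 1.15e-05), and rose by 1.10 ± 0.10 (adjusted p = 3.45e-06) in Clec9a gfp/gfp cells. Groups did not overlap for either gene in either genotype.

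Among the dimmer rows, Chac1, which breaks down glutathione, read 103.9, 107.0 and 96.05 against 191.2, 164.7 and 197.8 in WT cells. Its rise was 0.76 ± 0.12 (adjusted p = 0.000276) and 0.53 ± 0.12 (adjusted p = 0.00347) in the 2 genotypes. Trib3, a pseudokinase induced by CHOP, rose by 0.69 ± 0.17 and 0.58 ± 0.17. Its second call was lost without Clec9a gfp/gfp untreated replicate 2 (adjusted p = 0.0501) or dead cell replicate 3 (0.0574). Nupr1, a small nuclear stress protein, rose by 0.48 ± 0.11 and 0.41 ± 0.11, from arrays of 80.12 to 96.45 to arrays of 110.5 to 139.5. Quantile normalization raised the 2 values to 1.24 and 1.11 for Chac1, 1.29 and 1.23 for Trib3, and 0.83 and 0.79 for Nupr1. The 3 targets whose promoters are printed, Asns, Chac1 and Nupr1, thus all rose, while Vldlr and Herpud1, which also hold the CARE core, did not rise on the deposited scale.

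Psat1 and Shmt2, which ATF4 is also known to induce, fell in both genotypes. Psat1, an enzyme of serine synthesis, read 398.2, 500.3 and 468.5 against 118.8, 102.0 and 132.5 in WT cells and 415.9, 326.3 and 451.3 against 60.48, 117.0 and 140.7 in Clec9a gfp/gfp cells. It changed by -1.82 ± 0.24 (adjusted p = 5.57e-05) and -1.81 ± 0.24 (adjusted p = 5.54e-05). On the deposited scale these were the most negative estimates of the 33, within their SE of those of Sdf2l1. Shmt2, which passes the serine carbon to folate in mitochondria, read 485.4, 509.9 and 423.0 against 233.1, 212.8 and 248.3 in WT cells. Its changes were -0.98 ± 0.10 and -0.90 ± 0.10, and with quantile normalization -0.30 and -0.16, of which the second did not pass (adjusted p = 0.124). Mthfd2, the next enzyme after Shmt2 in the mitochondrial pathway, rose in the same arrays. Sesn2, a regulator of growth signalling, changed by -0.24 ± 0.15 in WT cells (adjusted p = 0.243) and by -0.49 ± 0.15 in Clec9a gfp/gfp cells (adjusted p = 0.0226). That call was lost without Clec9a gfp/gfp untreated replicate 1 or 2 or dead cell replicate 2 (0.0586, 0.0534 and 0.0909), and after a shift to one median (-0.25, adjusted p = 0.144). Quantile normalization turned the WT change to a called rise of 0.43 (adjusted p = 0.0219) and the other to 0.26 (adjusted p = 0.146). Vldlr, a lipoprotein receptor, read 81.12 to 104.0 over all 12 arrays and changed by 0.05 ± 0.09 and -0.04 ± 0.09.

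Chaperones and ATF4 targets were then set against each other. With the responses averaged over the genotypes, the median change was -0.62 over chaperones and 0.64 over ATF4 and CHOP targets, a distance of -1.26 on the log2 scale that is described here without a test. It holds for the listed members. Over the further lists given below, the averaged medians were -0.29 for amino acid genes and -1.15 for tRNA synthetases. Not all of those synthetases are known ATF4 targets. The mean log2 value of the chaperones exceeded that of the targets by 2.71 to 2.95 on the 6 untreated arrays and by 1.79 to 2.04 on the 6 with dead cells. This level gap is of interest only in how it shifts, since rows of different genes are not comparable in level, and its SD between arrays of a group was 0.068. A shift of arrays leaves the distance as it is, and quantile normalization widened it to -1.64.

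**Figure D3:**
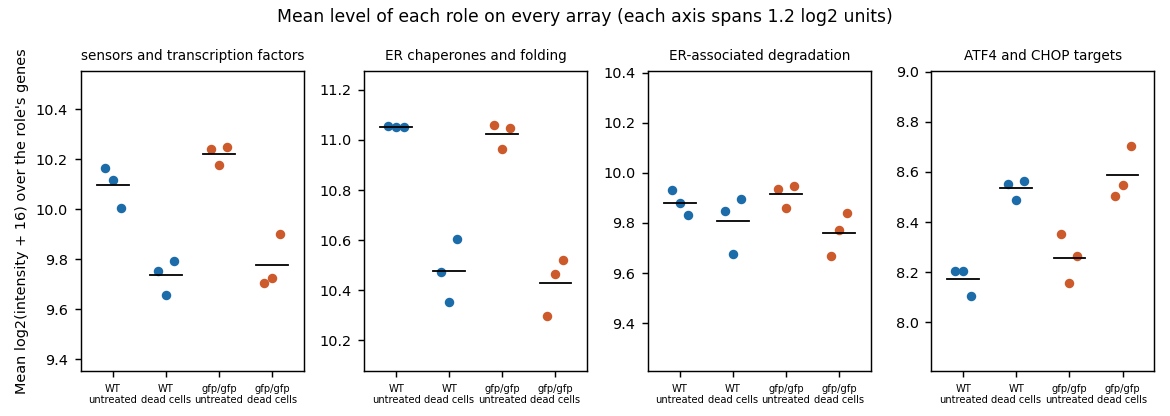
Mean log2(intensity + 16) over the genes of each role on every array, with a line for the group mean, WT in blue and Clec9a gfp/gfp in orange. Each axis spans 1.2 log2 units so that shifts compare by eye, and levels differ between panels. Chaperones are lower and ATF4 and CHOP targets higher with dead cells on all arrays of both genotypes, while degradation genes overlap in WT cells and are lower with dead cells on all Clec9a gfp/gfp arrays.

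**Figure D4:**
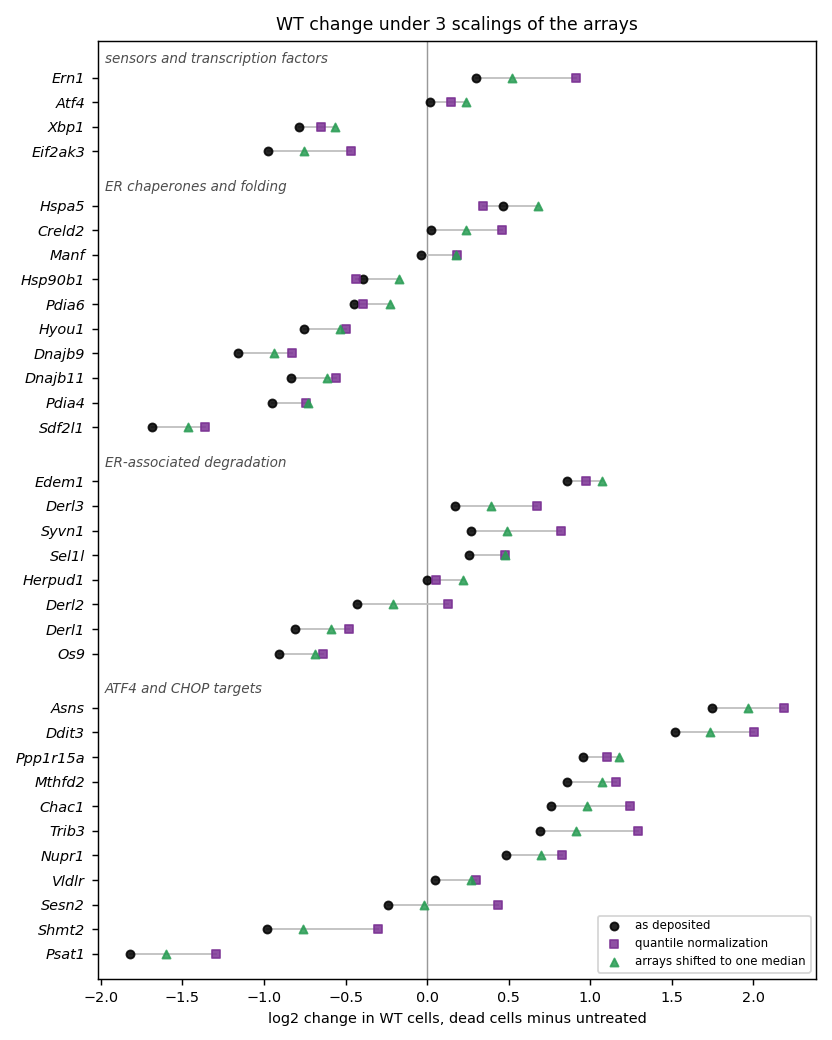
WT change of each gene with dead cells as deposited (black), after quantile normalization (purple) and after a shift of arrays to one median (green), on the log2(intensity + 16) scale. Derl2, Sesn2, Manf and Herpud1 change sign between scalings, and the falls of Sdf2l1 and Psat1 and the rises of Asns and Ddit3 do not.

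Other genes of the same pathways, from lists beyond the 36, placed these values in context. As background, 39.2% of single-symbol genes fell and 16.4% rose in WT cells, and 40.1% and 20.2% in Clec9a gfp/gfp cells. After quantile normalization 24.2% of rows fell and 27.0% rose in WT, and 24.3% and 28.5% in Clec9a gfp/gfp cells. A shift to one median gave 27.0% and 30.0% of rows in WT, and 27.6% and 32.1% in Clec9a gfp/gfp cells. Of 20 further ER chaperones and folding factors 13 fell and 4 rose in each genotype (65% and 20%), with medians of -0.68 in WT and -0.65 in Clec9a gfp/gfp cells. Quantile normalization gave medians of -0.36 and -0.31 with 13 and 11 falls, and a shift to one median -0.46 and -0.41 with 11 and 10. Txndc5, Erp29 and Fkbp2 changed by -2.30 ± 0.10, -1.88 ± 0.09 and -1.55 ± 0.09 in WT cells. Ero1a, the oxidase that recharges disulfide isomerases, stood apart at 2.12 ± 0.07 in WT and 2.10 ± 0.07 in Clec9a gfp/gfp cells, from 538.5 to 552.7 to 2396 to 2473 on the WT arrays. Of 26 genes of translocation into the ER and N-glycosylation 22 fell (84.6%) and 0 rose in each genotype. WT changes were -4.15 ± 0.16 for Mlec, a lectin of the ER, -2.24 ± 0.09 for Uggt1, the sensor of glycoprotein folding, -2.02 ± 0.09 for Rpn1 and -1.87 ± 0.09 for Spcs3. None of the 26 had an unadjusted p under 0.05 in the upward direction. With either scaling alternative 0 of these 26 rose in WT cells and 1 in Clec9a gfp/gfp cells.

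Of 15 further degradation and ER exit genes 11 fell and 1 rose in WT cells (73.3% and 6.67%, against 39.2% and 16.4% of single-symbol genes). In Clec9a gfp/gfp cells 10 fell and 1 rose (66.7% and 6.67%, against 40.1% and 20.2%), with medians of -0.91 in both. After quantile normalization 9 fell and 4 rose in WT (median -0.45) and 8 and 3 in Clec9a gfp/gfp cells (median -0.27), and after a shift to one median 10 and 3 and 9 and 1. Lman1, a cargo receptor for ER exit, changed by -2.02 ± 0.09 in WT cells, Selenos by -1.82 ± 0.12 and the ubiquitin ligase gene Marchf6 by -1.23 ± 0.09. Sec23b, a coat protein of vesicles that leave the ER, was the 1 that rose on the deposited scale, at 1.15 ± 0.09 in WT and 1.09 ± 0.09 in Clec9a gfp/gfp cells. Of 9 transcripts known to be cut by IRE1 in some cells, 6 fell and 2 rose in each genotype (66.7% and 22.2%). Itgb2, Hgsnat, Ergic3 and Col6a1 changed by -2.31 ± 0.10, -3.32 ± 0.17, -1.24 ± 0.09 and -2.13 ± 0.16 in WT cells, while Tapbp, the tapasin gene, rose by 0.67 in WT and 0.53 in Clec9a gfp/gfp cells (named after its values were seen). Col6a1 is also a gene of stromal cells, whose markers fell in the same arrays (12 of 16).

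Other ATF4 targets, and a gene family that holds some, were read from 2 lists. Of 16 genes of amino acid transport and metabolism 2 rose and 8 fell in each genotype (12.5% and 50.0%, near the 16.4% and 39.2% of single-symbol genes in WT and 20.2% and 40.1% in Clec9a gfp/gfp cells), with medians of -0.44 and -0.20. Slc7a11, the cystine importer, went from 22.45, 35.87 and 27.65 to 293.5, 228.4 and 285.3 in WT cells and changed by 2.68 ± 0.14 and 2.69 ± 0.14, on a scale that understates changes of dim rows. Aldh18a1, Pck2 and Slc1a4 changed by -1.34 ± 0.14, -0.83 ± 0.09 and -0.94 ± 0.12 in WT cells. After quantile normalization 4 rose and 7 fell in WT and 5 and 6 in Clec9a gfp/gfp cells (medians -0.03 and 0.0032), and after a shift to one median 4 and 8 and 5 and 7 (medians -0.22 and 0.03). Of 16 cytosolic tRNA synthetases 14 fell and 1 rose in each genotype (87.5% and 6.25%), with medians of -1.17 and -1.12. Only some genes of this family are known as ATF4 targets. Farsb changed by -2.77 ± 0.11, Hars by -2.15 ± 0.11, Vars by -1.57 ± 0.09 and Farsa by -1.18 ± 0.08 in WT cells, and the 1 that rose was Cars, at 0.57 and 0.63 (named after its values were seen). With each scaling alternative 13 or 14 synthetases fell and 2 rose, with medians of -0.71 and -0.60 after quantile normalization.

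Of 22 regulators of the stress response 7 rose and 6 fell in WT cells (31.8% and 27.3%, against 16.4% and 39.2% of single-symbol genes). In Clec9a gfp/gfp cells 9 rose and 6 fell (40.9% and 27.3%, against 20.2% and 40.1%). The proapoptotic Bcl2l11, a target of CHOP among others, rose by 3.58 ± 0.12 and 2.85 ± 0.12, the transcription factor Jdp2 by 3.58 ± 0.13 and 3.21 ± 0.13, and Ddit4, an inhibitor of mTORC1, by 2.52 ± 0.19 and 2.81 ± 0.19. Mbtps1, the protease that cuts ATF6, changed by -1.49 ± 0.10 and -1.54 ± 0.10. After quantile normalization 13 of the 22 rose and 5 fell, and after a shift to one median 13 and 6, in each genotype. Of all rows 27.0% rose and 24.2% fell in WT (quantile), and 28.5% and 24.3% in Clec9a gfp/gfp cells. A shift to one median gave 30.0% and 27.0%, and 32.1% and 27.6%. The median of the 22 was 0.19 in WT and 0.14 in Clec9a gfp/gfp cells. It went to 0.74 in both after quantile normalization and to 0.41 and 0.37 after a shift to one median. The median of all rows went from -0.04 and -0.05 to 0.11 and 0.10 and to 0.17 and 0.19.

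Loss of DNGR-1 changed no member past the threshold. In untreated cells 0 of 33 members differed between genotypes in limma (against 0.0301% of all rows). An unadjusted p under 0.05 was found for 1044 of 23238 rows and for 4 of the 33, all higher in Clec9a gfp/gfp cells. Chac1 read 153.4, 142.1 and 122.8 there against 103.9, 107.0 and 96.05 in WT cells, a difference of 0.39 ± 0.12 with adjusted p = 0.963. Herpud1 differed by 0.34 ± 0.11, Eif2ak3 by 0.30 ± 0.10 and Atf4 by 0.29 ± 0.11, and for these 4 genes the 3 Clec9a gfp/gfp arrays were all above the 3 WT arrays. With dead cells 0 of 33 differed (against 0.00430% of rows). An unadjusted p under 0.05 was found for 1308 of 23238 rows and for 3 of the 33. These were Eif2ak3 at 0.30 ± 0.10, Asns at 0.33 ± 0.13 and Mthfd2 at 0.18 ± 0.08. The 95% intervals of all 33 members excluded a 2-fold difference in both comparisons, and the widest bound was 0.72 untreated and 0.71 with dead cells on the log2 scale.

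The responses of the 2 genotypes were then compared directly. The difference in response, Clec9a gfp/gfp minus WT, was called for 0 of 33 members (against 0.00430% of all rows). An unadjusted p under 0.05 was found for 997 of 23238 rows and for 1 of the 33. That was Herpud1, at -0.39 ± 0.16 with a 95% interval of -0.74 to -0.05 (adjusted p = 0.999), whose untreated level was the higher one in Clec9a gfp/gfp cells. Dnajb9 had the largest positive difference, 0.48 ± 0.23, with an interval of -0.04 to 0.99. The median absolute difference was 0.092. On the deposited scale the intervals excluded a 2-fold difference in response for all 33, with the bound of Dnajb9 nearest to it, and a smaller difference may have gone unseen. Under each scaling 0 of 33 were called and 2 had an unadjusted p under 0.05 in limma. Of 23238 rows 1036 (quantile) and 1040 (one median) had such a p. The largest positive difference, that of a chaperone, was then 0.52 (quantile) and 0.49 (one median). The calls made in Clec9a gfp/gfp cells alone, those of Herpud1, Derl3 and Sesn2, are therefore not shown to differ from WT.

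**Figure D5:**
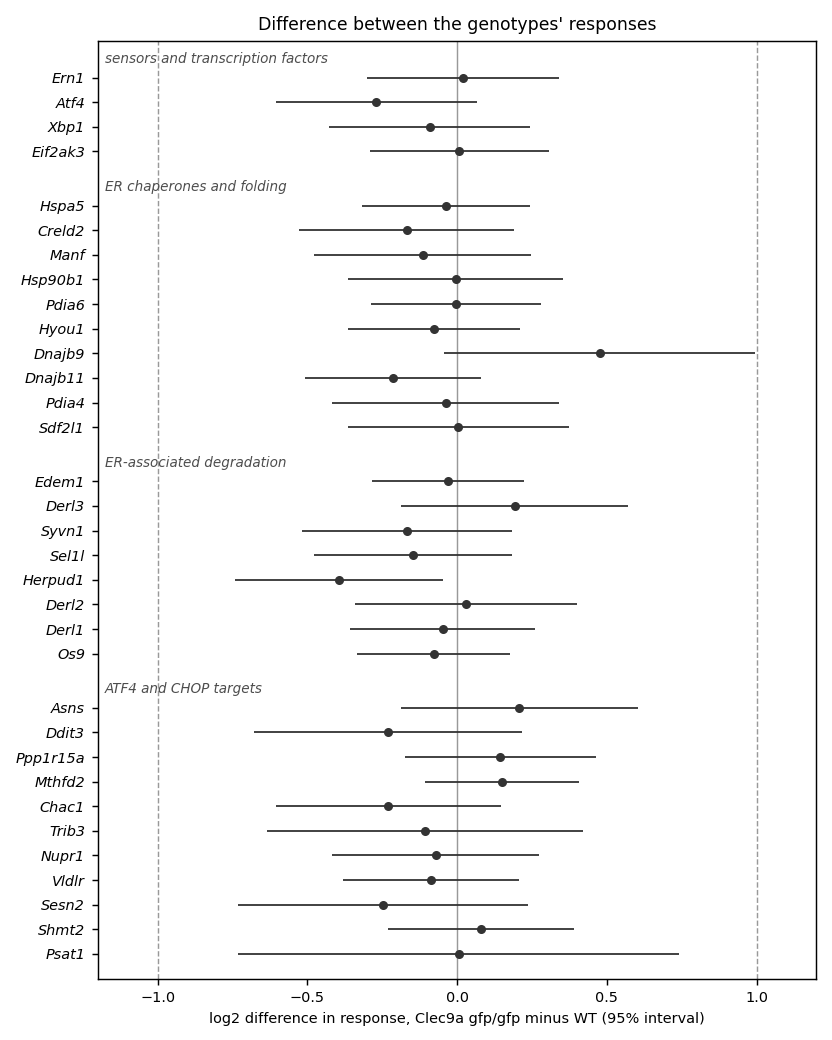
Difference between the genotypes' responses to dead cells for each gene, Clec9a gfp/gfp minus WT, with the 95% interval from limma, on the log2 scale. Dashed lines mark a 2-fold difference, and the intervals of all 33 genes lie between them.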

How the data were processed

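Affymetrix whole-transcript arrays were hybridised with biotin-labelled RNA, per the labels' protocols, which name a ribosomal RNA reduction kit. Per the submitters' processing notes, the genome build was mm8. The deposited values are linear intensity, 1 per row (23238 rows) and array, with software, background correction and normalization not given in the sources used here. Gene names came from the platform's annotation table, updated by gene ID to RefSeq of GRCm38.p6. Intensities were set to log2(value + 16) and all rows of all 12 arrays were fitted together by limma 3.58.1, each group having its own mean (R 4.3.3, lmFit and eBayes, two-sided), with Benjamini-Hochberg adjustment over all rows and a call at 0.05. The fit was also run on simulated data with independent normal spread and 200 changed rows. Far more rows were called on these arrays, so that run checks the code and not the calls. The number of arrays sets the precision. Permuting 3 against 3 arrays cannot give p below 0.1.

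Members, gene lists and the pseudocount were chosen with earlier results of these data known, so counts over a list carry no test of their own. All measured members are named. From each further pathway list up to 4 genes with the smallest p over both responses are named, from each marker list 2, with exceptions stated. Xcr1 and Tnfrsf17 were added as defining markers. Sequences are from RefSeq. Alternatives were other pseudocounts, 2 scalings, a filter on dim rows, 1 row per gene, another eBayes setting, fits on fewer arrays and the replicate number as a block.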

Additional observations from a re-analysis of the deposited data

How the results depend on the processing

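Over 22 alternatives, 17 members were called in the same direction in both genotypes every time. The 8 higher were Asns, Chac1, Ddit3, Edem1, Hspa5, Mthfd2, Nupr1 and Ppp1r15a, and the 9 lower were Derl1, Dnajb11, Eif2ak3, Hyou1, Os9, Pdia4, Psat1, Sdf2l1 and Xbp1. Quantile normalization reversed the sign of Derl2 (0.13 in WT, 0.25 in Clec9a gfp/gfp cells) and Sesn2 (0.43 and 0.26), and turned Creld2 in Clec9a gfp/gfp cells to a called 0.36. The cause was not tested. The distance between chaperones and ATF4 targets was -1.10 with a pseudocount of 64 and -1.64 with quantile normalization, against -1.26. Leaving out 1 array at a time gave -1.31 to -1.18 for it, 9 to 12 rises and 13 to 14 falls in WT cells, 8 to 11 and 13 to 17 in Clec9a gfp/gfp cells, and 0 members in each genotype comparison.

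The titles number the arrays of every group from 1 to 3. No pairing by these numbers was seen in the values. Correlated deviations were over 0.1 in 2 of 18 same-numbered pairs (range -0.16 to 0.13), and the own number correlated best in 13 of 36 cases. With 3 arrays a group this cannot show whether same-numbered arrays shared a mouse or culture. With the replicate block 9 members rose and 14 fell in WT cells and 11 and 16 in Clec9a gfp/gfp cells, and 0 were called between genotypes. The block cost 1 call, that of Ern1 in WT cells (0.30, adjusted p = 0.0501). Signal over background was not used here, so how far dim rows such as Nupr1 and Vldlr lie above it is not known.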
